A study of Homo sapiens with 6 samples.

Results

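The enzymes and regulators of cholesterol and fatty acid synthesis were followed in AGS, an epithelial cell line of human gastric adenocarcinoma origin, after knockdown of the pseudogene ANXA2P1. The members were the rows of the deposited table whose symbol stood in a given list of 36 genes, of which 34 were in the table among 11846 genes in all. The list held 19 genes of the cholesterol arm, which is the set driven mainly by the transcription factor SREBP2, 10 genes of the fatty acid arm, driven mainly by SREBP1, and 7 regulators of both factors. ELOVL5 and FADS1 were not analysed here, which left 8 fatty acid genes. Of the 34 members, 33 passed the filter on low values and were tested among 10813 genes, and FADS2 did not pass it.

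Poly(A) RNA was sequenced from 3 ANXA2P1 knockdown libraries and 3 control libraries, which the labels call biological replicates. The labels give the control cells a scrambled short hairpin RNA and name a hairpin against ANXA2P1, whereas the methods of the study describe CRISPR interference, in which dead Cas9 carries a repressor to a promoter, and the sources thus differ on the means of knockdown. Both groups were the same cell line, and no source used here says whether they were handled in the same runs, so that the knockdown and a batch following the groups cannot be told apart. The level of ANXA2P1 was not analysed here, which leaves the group labels without a check on the targeted gene.

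Recovered reads totalled 19010940 to 21467162 in the knockdown libraries and 21103051 to 22911995 in the control libraries, with a median of 719 to 864 reads per gene. Values are FPKM, fragments scaled to gene length and library size, so levels can be set side by side between genes. Knockdown 1 stood apart in both directions, since among all genes tested it held the highest of the 6 values for 33.7% and the lowest for 30.7%, the largest share of each among the 6 libraries. The epithelial markers EPCAM, KRT8, KRT18, KRT19, CLDN4 and CLDN7 were all in the table, and their summed level was 1500 to 1690 FPKM in the knockdown and 1430 to 1530 FPKM in the control. Of 3 endothelial markers 0 were in the table. COL1A1, at 1.38 to 1.62 FPKM over the 6 libraries, was the fibroblast marker present of 5. LYZ, a lysozyme gene listed as a blood cell marker that glandular epithelium also expresses, was the marker present of 4 on that list, at 343, 175 and 239 FPKM in the knockdown and 182, 374 and 219 FPKM in the control.

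Cells make cholesterol from acetyl-CoA through mevalonate, isoprenoid diphosphates, squalene and lanosterol, and they make saturated and monounsaturated fatty acids from the same acetyl-CoA through malonyl-CoA. SREBP2 and SREBP1 are made as precursors in the membrane of the endoplasmic reticulum, where SCAP escorts them and INSIG proteins hold the complex back when sterols are plentiful. When sterols are scarce the complex moves to the Golgi, where a serine protease, encoded by MBTPS1, and then a metalloprotease, encoded by MBTPS2, release the active factor. The active factor binds sterol regulatory elements beside binding sites of NF-Y, which recognises CCAAT boxes, and of Sp1, which recognises GC boxes.

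To describe the sequence near the starts of these genes, promoter windows were read from RefSeq (GRCh38.p14). Each ran from 250 bases before the gene start to 50 bases after it, 300 bases in all. Windows were found for 30 of the 34 members, with a single start for each. Those of IDI1, DHCR7, ACLY, ACSS2 and FADS2 lie well away from the gene start annotated in GENCODE 29. That of SCAP lies off it by less. The motif content of these windows is less certain, and those of DHCR7, ACLY and ACSS2 hold CCAAT boxes counted below. The promoters printed here are those of MVK and NSDHL, which held the most CCAAT boxes, SREBF2, which held the sterol regulatory element core, and MBTPS2, which held neither motif and had the lowest log2 fold change. They lie on the plus strand at chr12:109573544-109573843, chrX:152830813-152831112, chr22:41832855-41833154 and chrX:21839367-21839666. Capitals mark CCAAT boxes (CCAAT, or ATTGG on the other strand) and the sterol regulatory element core (TCACNCCAC, or GTGGNGTGA on the other strand).
MVK: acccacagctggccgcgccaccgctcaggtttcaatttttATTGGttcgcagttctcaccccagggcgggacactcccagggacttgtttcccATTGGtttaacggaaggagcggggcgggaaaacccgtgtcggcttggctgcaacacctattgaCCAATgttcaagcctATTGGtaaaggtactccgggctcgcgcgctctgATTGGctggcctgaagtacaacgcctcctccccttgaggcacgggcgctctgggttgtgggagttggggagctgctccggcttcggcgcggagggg
NSDHL: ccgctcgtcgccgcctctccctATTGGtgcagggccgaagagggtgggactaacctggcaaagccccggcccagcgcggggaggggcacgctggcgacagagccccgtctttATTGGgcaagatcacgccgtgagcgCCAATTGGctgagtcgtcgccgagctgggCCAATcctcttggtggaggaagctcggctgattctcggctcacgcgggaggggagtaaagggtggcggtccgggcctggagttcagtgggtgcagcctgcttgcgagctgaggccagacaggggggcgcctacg
SREBF2: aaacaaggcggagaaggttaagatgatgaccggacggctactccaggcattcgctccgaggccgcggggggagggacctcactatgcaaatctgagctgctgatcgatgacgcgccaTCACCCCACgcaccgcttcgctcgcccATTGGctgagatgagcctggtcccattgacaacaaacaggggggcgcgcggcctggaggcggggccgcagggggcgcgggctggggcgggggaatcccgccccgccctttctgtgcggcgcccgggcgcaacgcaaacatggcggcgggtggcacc
MBTPS2: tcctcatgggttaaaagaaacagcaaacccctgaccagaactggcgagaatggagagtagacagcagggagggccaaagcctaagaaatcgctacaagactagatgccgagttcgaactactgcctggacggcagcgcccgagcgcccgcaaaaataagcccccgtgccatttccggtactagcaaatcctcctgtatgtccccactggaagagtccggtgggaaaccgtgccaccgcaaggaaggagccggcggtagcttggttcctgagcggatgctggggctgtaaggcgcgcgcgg

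A CCAAT box stood in 13 of 16 cholesterol arm promoters, or 81.2%, and in 4 of 7 fatty acid arm promoters and 2 of 7 regulator promoters. The same letters stood in 37.4% of 8815 promoters of tested genes and in 34.6% of 35116 promoters in the RefSeq table. MVK and NSDHL had 5 each, MSMO1 had 4, and MVD, FDPS and EBP had 3 each. In NSDHL a pair of the boxes overlap on opposite strands. These 6 genes did not share a direction in the expression data, with log2 fold changes of 0.25, 0.17 and -0.17 for MVK, NSDHL and MSMO1 and of 0.17, 0.13 and 0.13 for MVD, FDPS and EBP.

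The sterol regulatory element core, matched exactly with N as any base, was found in 1 of 30 member promoters. This was that of SREBF2, at -133 to -125 from the gene start. The share was 1.06% of tested genes and 1.13% of all promoters. Elements that differ from these letters were not counted. The GC box (GGGCGG, or CCGCCC on the other strand) was common, in 86.7% of member promoters, 71.6% of tested genes and 45.0% of all promoters. The E-box (CACGTG on both strands) stood in 4 of 30, or 13.3%, those of LSS, SC5D, SCAP and INSIG1, against 10.3% of tested genes and 7.26% of all promoters. These matches are letters in a window, and binding was not measured.

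**Figure D1:**
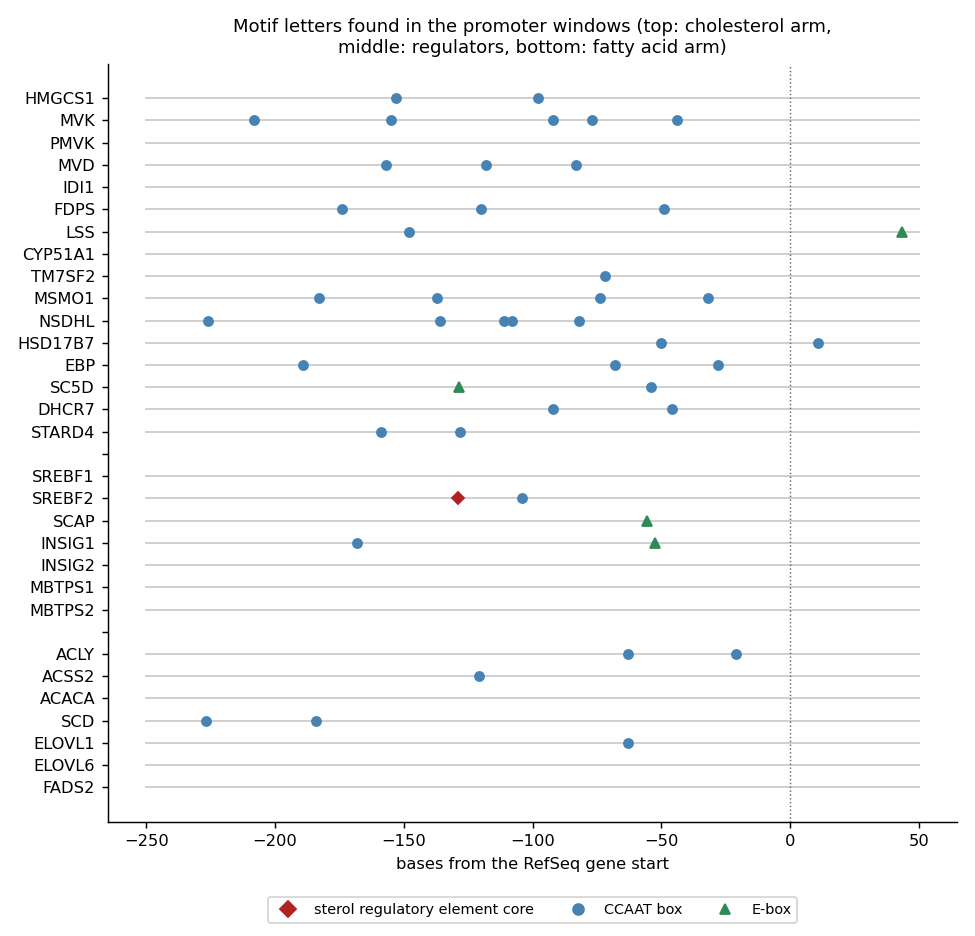
Positions of the sterol regulatory element core, the CCAAT box and the E-box in the promoter windows of 30 members (x axis, bases from the RefSeq gene start; one line per gene). CCAAT boxes lie in 13 of 16 cholesterol arm windows, and an exact match to the sterol regulatory element core lies in that of SREBF2 alone among the 30.

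No synthesis gene passed the limma adjusted p of 0.05 in the comparison of ANXA2P1 knockdown with control, in which 14 of 10813 genes did (0.129%). The largest differences in either direction among the members were those of MVK, the mevalonate kinase, which was 1.19-fold higher, and MBTPS2, the metalloprotease, which was at 0.79 of the control level. At an unadjusted limma p under 0.05, 2 members were higher (MVK and SCAP), beside 4.71% of all tested genes, and 2 were lower (MBTPS2 and ELOVL6), beside 5.92%. All knockdown libraries stood above all control libraries for 2 members (MVK and SCAP), beside 9.86% of all genes, and below them for 3 (MBTPS2, ELOVL6 and MSMO1), beside 9.13%. These shares are near or below the background. With limma-voom on the recovered reads, 0 members passed the adjusted p as well.

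The counts depended on single libraries. Without knockdown 1, 256 genes passed the adjusted p but 0 members, and 5 members (MVK, MSMO1, ACSS2, SREBF1 and MBTPS2) had an unadjusted limma p under 0.05, beside 16.0% of all genes. Without knockdown 3, 5 genes and 0 members passed the adjusted p, and 10 members had an unadjusted p under 0.05, beside 16.9% of all genes. With any 1 of the other 4 libraries left out, 0 genes passed the adjusted p, and the members with an unadjusted p under 0.05 were MVK and MBTPS2. MVK and MBTPS2 were the 2 members in all of these counts. In bulk RNA, a different level per cell and a different share of expressing cells cannot be told apart.

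Small positive differences were more frequent in the cholesterol arm than in the fatty acid arm. The log2 fold change was positive in 17 of 19 cholesterol arm genes, 3 of 7 fatty acid arm genes and 5 of 7 regulators, beside 53.1% of all genes tested. Its median was 0.09 in the cholesterol arm (range -0.17 to 0.25), -0.02 in the fatty acid arm (-0.18 to 0.11) and 0.06 among the regulators (-0.34 to 0.17), beside 0.01 over all genes. The cholesterol arm median exceeded the fatty acid arm median by 0.117, and by 0.081 to 0.148 with 1 library left out. Without control 2 the fatty acid arm had a median of 0.010 with 4 of 7 genes positive. With array weights its median was 0.022, also with 4 of 7 positive, and the difference between the arms was 0.062. These are descriptions of small shifts, and no test was made over the members.

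In single libraries, the cholesterol arm median against the control mean was 0.096, 0.089 and 0.010 in knockdown 1, 2 and 3, and -0.016, -0.005 and 0.032 in control 1, 2 and 3. Knockdown 3 therefore lay within the range of the controls. The fatty acid arm medians were 0.029, 0.007 and -0.105 in the knockdown and -0.046, 0.050 and -0.004 in the control, and the groups overlapped. The difference between the arms within a library was 0.067, 0.083 and 0.115 in the knockdown, above each of the control values of 0.030, -0.055 and 0.035. Control libraries are set against a mean that includes them, which draws their values toward 0. The difference was not tested, and no share over other pairs of gene groups was computed.

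Of the 19 cholesterol arm genes, 16, 15 and 10 were above their control mean in knockdown 1, 2 and 3, and 9, 6 and 14 were above it in control 1, 2 and 3. Among all 10813 genes tested, these counts were 5744, 5419 and 5687 in the knockdown and 4876, 6139 and 5066 in the control. Knockdown 1 held the highest of the 6 values for 7 of the 19 genes, or 36.8%, beside 33.7% of all genes. Knockdown 2 held it for 6 of the 19, or 31.6%, beside 9.38% of all genes. Without knockdown 1, the count of positive cholesterol arm genes was 14 of 19 with a median of 0.063, and that of all genes was 51.9%. Without knockdown 3 the count was 16 of 19 with a median of 0.069, and that of all genes was 52.7%.

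**Figure D2:**
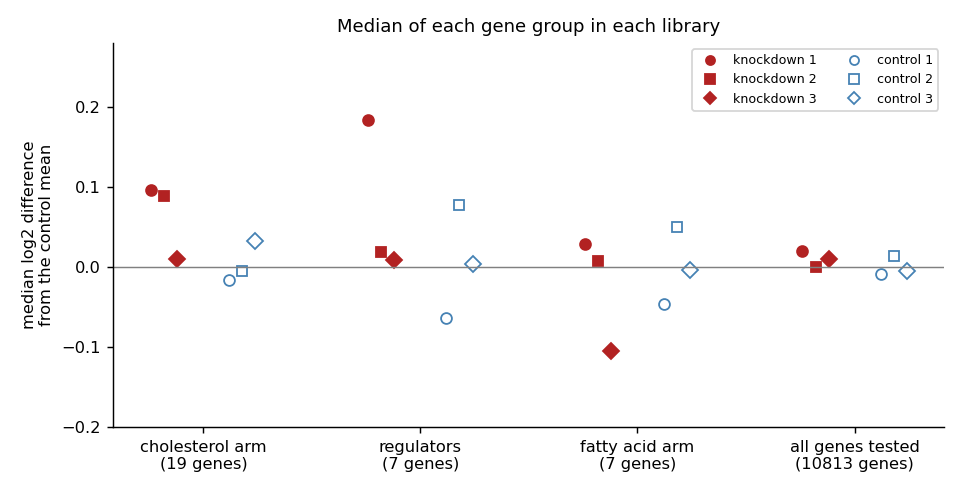
Median log2 difference from the control mean (y axis) of the 19 cholesterol arm genes, 7 regulators, 7 fatty acid arm genes and all 10813 genes tested, one point per library, with knockdown libraries filled and control libraries open. Knockdown 1 and 2 lie above the controls in the cholesterol arm at 0.096 and 0.089, knockdown 3 at 0.010 lies among them, and the groups overlap in the other sets.

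**Figure D3:**
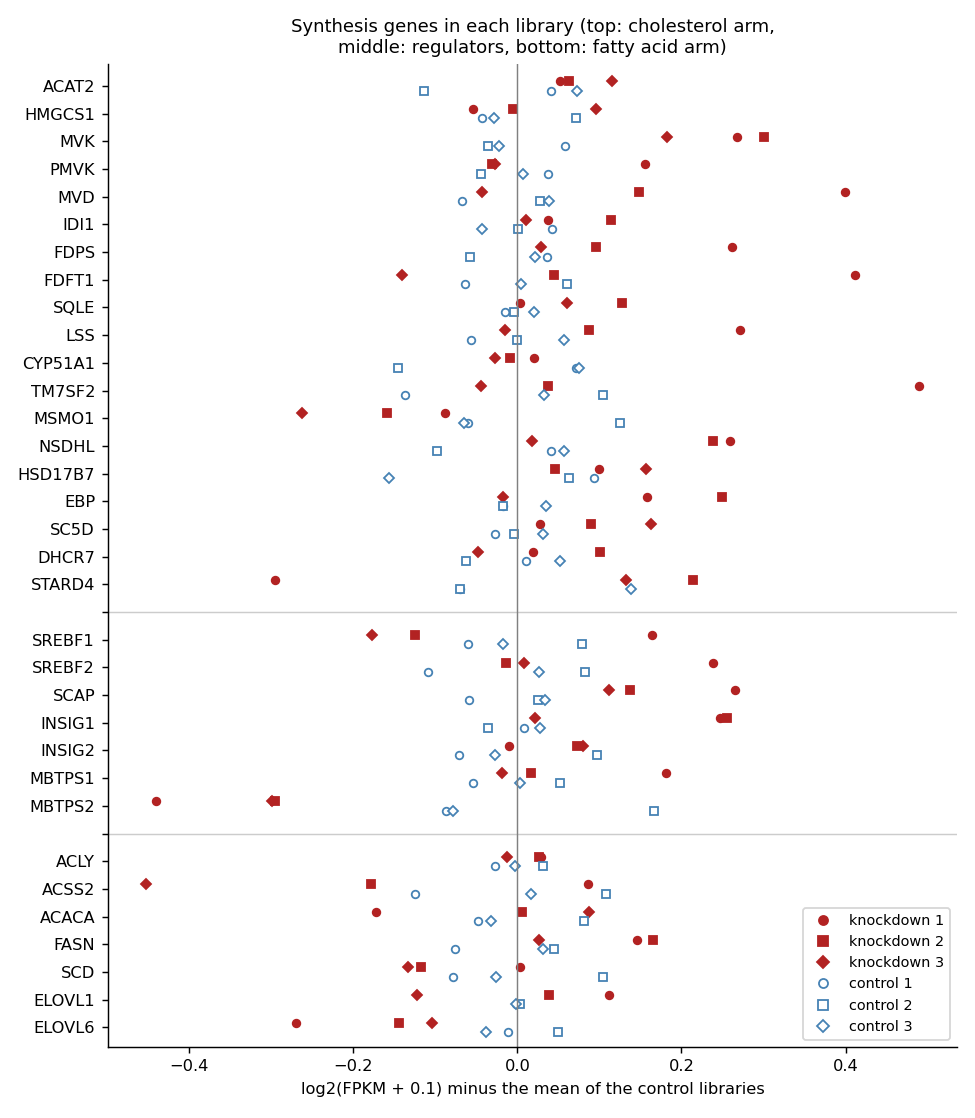
log2(FPKM + 0.1) of each of the 33 tested members minus its control mean (x axis) in the 3 knockdown libraries (filled) and 3 control libraries (open), with genes in rows by arm. MVK and SCAP have all knockdown points right of all control points, and MBTPS2, ELOVL6 and MSMO1 have them all to the left.

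The first steps of the cholesterol arm turn acetyl-CoA into mevalonate and its diphosphate. MVK, which phosphorylates mevalonate and is annotated at chr12:109573255-109598117 on the plus strand (hg38, GENCODE 29), had 8.86, 9.07 and 8.35 FPKM in the knockdown and 7.65, 7.16 and 7.23 FPKM in the control. Every knockdown library was above every control library, and the means were 8.76 ± 0.374 FPKM and 7.34 ± 0.263 FPKM (SD, n = 3 each). This is a log2 fold change of 0.25 (SE 0.0668, limma adjusted p = 0.220), and with any 1 library left out it was 0.23 to 0.29 with a limma adjusted p from 0.109 to 0.702. The exons of MVK share 306 bases with MMAB, a cobalamin pathway gene on the opposite strand, and no source used here gives the strand setting of the counting. MMAB had 4.22, 3.47 and 3.17 FPKM in the knockdown and 3.50, 3.58 and 3.65 FPKM in the control, with a log2 fold change of 0.01 (SE 0.110, limma adjusted p = 0.983), and its groups overlapped.

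The other mevalonate genes had smaller differences relative to their errors. ACAT2, the cytosolic acetoacetyl-CoA thiolase, averaged 27.1 ± 0.616 FPKM in the knockdown and 25.7 ± 1.74 FPKM in the control (SD, n = 3 each), with a log2 fold change of 0.08 and a limma adjusted p of 0.726. It shares 1141 exon bases with SOD2 on the opposite strand, so its level is uncertain. HMGCS1, the HMG-CoA synthase and a standard SREBP2 target, had 37.3, 38.6 and 41.4 FPKM in the knockdown and 37.6, 40.7 and 38.0 FPKM in the control, a log2 fold change of 0.01 (SE 0.0668, limma adjusted p = 0.963). The groups overlapped.

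PMVK, the phosphomevalonate kinase, had 47.0, 41.3 and 41.4 FPKM in the knockdown and 43.3, 40.9 and 42.4 FPKM in the control, and its log2 fold change of 0.03 turned to -0.03 without knockdown 1. MVD, the mevalonate diphosphate decarboxylase, had 16.2, 13.6 and 11.9 FPKM in the knockdown and 11.7, 12.5 and 12.6 FPKM in the control, with a log2 fold change of 0.17 (SE 0.108, limma adjusted p = 0.630). Without knockdown 1 that of MVD was 0.052, and without knockdown 3 it was 0.272. Knockdown 1 was the high library for both genes, and for MVD the third knockdown library lay among the controls.

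Among the isoprenoid diphosphate enzymes, IDI1, the isopentenyl diphosphate isomerase, averaged 27.8 ± 1.07 FPKM in the knockdown and 26.8 ± 0.825 FPKM in the control (SD, n = 3 each), a log2 fold change of 0.05 (SE 0.0605, limma adjusted p = 0.786). FDPS, the farnesyl diphosphate synthase, had 22.1, 19.7 and 18.8 FPKM in the knockdown and 18.9, 17.7 and 18.7 FPKM in the control, a log2 fold change of 0.13 (SE 0.0749, limma adjusted p = 0.579). Without knockdown 1, its highest library, it was 0.066. FDPS has processed pseudogenes that can share its reads, so its level is less certain than that of IDI1.

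Squalene is made by FDFT1, opened to an epoxide by SQLE and closed to lanosterol by LSS. FDFT1 had 83.6, 64.8 and 57.0 FPKM in the knockdown and 60.1, 65.5 and 63.0 FPKM in the control, so the knockdown held both the highest and the lowest library. Its log2 fold change was 0.11 (SE 0.129, limma adjusted p = 0.810), and -0.05 without knockdown 1. SQLE had 52.5, 57.2 and 54.6 FPKM in the knockdown and 51.8, 52.2 and 53.1 FPKM in the control, a log2 fold change of 0.06 (SE 0.0601, limma adjusted p = 0.747). LSS had 38.3, 33.7 and 31.4 FPKM in the knockdown and 30.5, 31.7 and 33.0 FPKM in the control, a log2 fold change of 0.12 (SE 0.0827, limma adjusted p = 0.660). Without knockdown 1 the log2 fold change of LSS was 0.038, and without knockdown 3 it was 0.181, while that of FDFT1 was 0.228 without knockdown 3. Knockdown 1 was again the highest library for FDFT1 and LSS.

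The sterol steps from lanosterol onward held the cholesterol gene that was lower with no overlap. MSMO1, the methylsterol monooxygenase that removes the methyl groups at carbon C4, had 62.2, 59.2 and 55.1 FPKM in the knockdown and 63.4, 72.1 and 63.2 FPKM in the control. The highest knockdown library lay just under the lowest control library, and the log2 fold change was -0.17 (SE 0.0782, limma adjusted p = 0.489). NSDHL, the dehydrogenase that acts next to MSMO1 in the same demethylation, had 21.3, 21.0 and 18.0 FPKM in the knockdown and 18.3, 16.6 and 18.5 FPKM in the control. Its log2 fold change was 0.17 (SE 0.0833, limma adjusted p = 0.507), with knockdown 3 among the controls.

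HSD17B7, the ketoreductase of that demethylation, averaged 2.36 ± 0.0956 FPKM in the knockdown and 2.21 ± 0.213 FPKM in the control (SD, n = 3 each), a log2 fold change of 0.10 (SE 0.0984, limma adjusted p = 0.764), and it has a near-identical pseudogene that can share its reads. The log2 fold changes of the 3 enzymes of C4 demethylation thus did not share a sign, and none passed the adjusted threshold.

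TM7SF2, a sterol reductase, had 37.1, 27.1 and 25.6 FPKM in the knockdown and 24.0, 28.4 and 27.0 FPKM in the control. The log2 fold change of 0.16 (SE 0.138, limma adjusted p = 0.722) rested on knockdown 1, and was -0.004 without it and 0.263 without knockdown 3. EBP, the sterol isomerase, had 12.1, 12.9 and 10.7 FPKM in the knockdown and 10.7, 10.7 and 11.1 FPKM in the control, a log2 fold change of 0.13 (SE 0.0808, limma adjusted p = 0.624). SC5D, the sterol desaturase, had 8.14, 8.50 and 8.95 FPKM in the knockdown and 7.83, 7.96 and 8.16 FPKM in the control, a log2 fold change of 0.09 (SE 0.0657, limma adjusted p = 0.660), with knockdown 1 just under control 3.

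DHCR7, the reductase of 7-dehydrocholesterol, averaged 30.9 ± 1.61 FPKM in the knockdown and 30.4 ± 1.18 FPKM in the control, and CYP51A1, the lanosterol demethylase, averaged 3.23 ± 0.0573 FPKM in the knockdown and 3.25 ± 0.285 FPKM in the control (SD, n = 3 each). Their log2 fold changes of 0.02 and -0.003 were the smallest in size in the sterol steps. CYP51A1 shares 2844 of its 3584 exon bases with another annotated coding gene on the same strand, so its level is uncertain. STARD4, a cytosolic sterol carrier, had 1.55, 2.25 and 2.12 FPKM in the knockdown and 1.83, 1.83 and 2.13 FPKM in the control, a log2 fold change of 0.02 (SE 0.146, limma adjusted p = 0.973) in which knockdown 1 was the lowest of the 6 libraries.

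**Figure D4:**
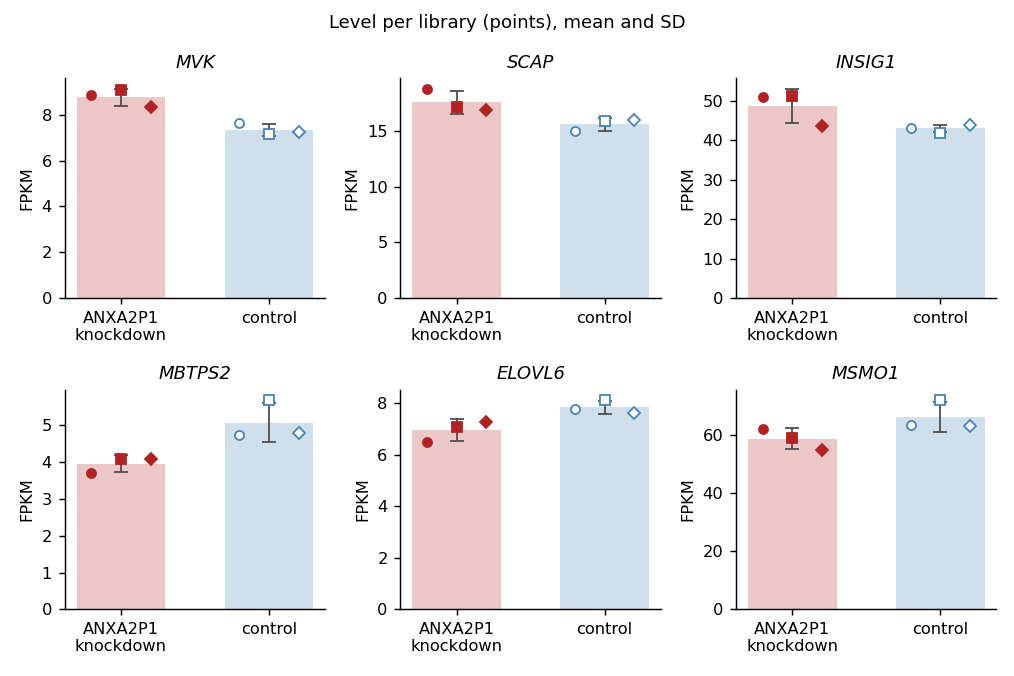
FPKM (y axis, from 0) of MVK, SCAP, INSIG1, MBTPS2, ELOVL6 and MSMO1 in the knockdown (left bar) and the control (right bar), with one point per library, the bar at the mean of 3 libraries and the error bar at 1 SD. The panels were chosen to hold the 5 tested members whose groups do not overlap, and INSIG1. Among all genes tested, 9.86% had every knockdown library above every control library and 9.13% below. For INSIG1, knockdown 3 at 43.6 FPKM lies among the controls.

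Among the 7 regulators, the lowest p-values were those of the protease gene MBTPS2, the escort gene SCAP and the retention gene INSIG1, and none passed the adjusted threshold. MBTPS2, the metalloprotease that makes the second cut of the SREBP precursors, is annotated at chrX:21839636-21885424 on the plus strand (hg38, GENCODE 29). It had 3.69, 4.09 and 4.08 FPKM in the knockdown and 4.74, 5.67 and 4.77 FPKM in the control, on 668 to 1138 reads per library. The means were 3.95 ± 0.226 FPKM and 5.06 ± 0.530 FPKM (SD, n = 3 each), and all knockdown libraries were below all control libraries. This is a log2 fold change of -0.34 (SE 0.0940, limma adjusted p = 0.234), and with any 1 library left out it was -0.39 to -0.26 with a limma adjusted p from 0.137 to 0.607.

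MBTPS2 shares 1093 exon bases with YY2, a zinc finger gene that lies within it on the same strand, so some reads could be assigned to either. YY2 had 0.718, 0.669 and 0.598 FPKM in the knockdown and 0.661, 0.615 and 0.463 FPKM in the control, a log2 fold change of 0.17 (SE 0.151, limma adjusted p = 0.726). The first protease, encoded by MBTPS1, had 23.1, 20.6 and 20.1 FPKM in the knockdown and 19.6, 21.1 and 20.4 FPKM in the control, a log2 fold change of 0.06 (SE 0.0721, limma adjusted p = 0.797). Without knockdown 1 the log2 fold change of MBTPS1 was 0.002. The ratio of MBTPS2 to MBTPS1 was 0.160, 0.198 and 0.203 in the knockdown and 0.242, 0.269 and 0.234 in the control, with no overlap. The ratio was chosen after its values were seen and was not tested, and no share over other gene pairs was computed.

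SCAP, the escort of the SREBP precursors, had 18.8, 17.2 and 16.9 FPKM in the knockdown and 15.0, 15.9 and 16.0 FPKM in the control. The knockdown libraries were all above the control libraries, with a log2 fold change of 0.17 (SE 0.0678, limma adjusted p = 0.435). With any 1 library left out, the limma adjusted p was 0.265 to 0.845.

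INSIG1, the retention protein that is itself an SREBP target, had 51.0, 51.3 and 43.6 FPKM in the knockdown and 43.2, 41.9 and 43.8 FPKM in the control. The first and second knockdown libraries were the highest of the 6 and the third was among the controls, with a log2 fold change of 0.17 (SE 0.0772, limma adjusted p = 0.481). INSIG2, the related protein that is less dependent on SREBP, had 6.97, 7.39 and 7.43 FPKM in the knockdown and 6.68, 7.52 and 6.89 FPKM in the control, a log2 fold change of 0.05 (SE 0.0721, limma adjusted p = 0.845). The ratio of INSIG1 to SCAP was 2.76 ± 0.207 in the knockdown and 2.75 ± 0.130 in the control (SD, n = 3 each), with overlapping libraries.

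The values of both transcription factor genes overlapped between the groups. SREBF2, which encodes SREBP2, had 46.6, 39.1 and 39.7 FPKM in the knockdown and 36.6, 41.8 and 40.2 FPKM in the control, a log2 fold change of 0.08 (SE 0.0875, limma adjusted p = 0.789). SREBF1, which encodes SREBP1, had 34.6, 28.3 and 27.3 FPKM in the knockdown and 29.6, 32.6 and 30.5 FPKM in the control, a log2 fold change of -0.05 (SE 0.0957, limma adjusted p = 0.891). Knockdown 1 was the highest library for both genes. Without knockdown 1 the log2 fold change of SREBF1 was -0.15 (limma adjusted p = 0.266) and that of SREBF2 was -0.002. The exons of SREBF1 share 556 bases with RAI1 on the opposite strand.

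Within a library, the ratio of SREBF2 to SREBF1 was 1.35, 1.38 and 1.45 in the knockdown and 1.24, 1.28 and 1.32 in the control. All knockdown ratios lay above all control ratios. This ratio was also chosen after its values were seen and was not tested, and no share over other gene pairs was computed.

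The fatty acid arm starts with the supply of acetyl-CoA in the cytosol. ACLY, the ATP citrate lyase, had 68.2, 68.1 and 66.3 FPKM in the knockdown and 65.6, 68.3 and 66.7 FPKM in the control, a log2 fold change of 0.01 (SE 0.0563, limma adjusted p = 0.944). ACSS2, which makes acetyl-CoA from acetate, had 25.6, 21.3 and 17.6 FPKM in the knockdown and 22.1, 26.0 and 24.4 FPKM in the control. Its log2 fold change of -0.18 (SE 0.130, limma adjusted p = 0.666) depended on both knockdown 1, the second highest of the 6 libraries, and knockdown 3, the lowest. Without knockdown 3 it was -0.05, and without knockdown 1 it was -0.31 (limma adjusted p = 0.113), in a fit where 16.0% of all genes had an unadjusted p under 0.05.

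Malonyl-CoA is made by ACACA and used by FASN to build palmitate. ACACA had 16.6, 18.8 and 19.9 FPKM in the knockdown and 18.1, 19.8 and 18.3 FPKM in the control, a log2 fold change of -0.02 (SE 0.0815, limma adjusted p = 0.937). FASN had 99.6, 101 and 91.7 FPKM in the knockdown and 85.4, 92.9 and 92.0 FPKM in the control, a log2 fold change of 0.11 (SE 0.0684, limma adjusted p = 0.608). FASN had the highest log2 fold change of its arm, with knockdown 3 under 2 of the controls.

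The arm held the most abundant member. SCD, the desaturase that turns stearate into oleate, had 399, 367 and 363 FPKM in the knockdown and 377, 428 and 391 FPKM in the control, a mean level above 99.6% of the genes in the table. Its log2 fold change was -0.08 (SE 0.0770, limma adjusted p = 0.746), and knockdown 1 lay among the controls. Without knockdown 1 it was -0.13, and without control 2, the highest library, it was -0.03. FADS2, the desaturase of polyunsaturated fatty acids, was at the other end with 0.380, 0.208 and 0.241 FPKM in the knockdown and 0.301, 0.372 and 0.308 FPKM in the control. These overlapping values rest on 50 to 88 reads per library, and its mean was under the filter, so it was not tested.

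Of the elongases, ELOVL6 was lower with no overlap between the groups and ELOVL1 was not. ELOVL6, which lengthens palmitate, had 6.48, 7.08 and 7.28 FPKM in the knockdown and 7.77, 8.11 and 7.63 FPKM in the control, with every knockdown library below every control library. This is a log2 fold change of -0.17 (SE 0.0712, limma adjusted p = 0.441). ELOVL1, which lengthens saturated very long chains, averaged 54.0 ± 4.43 FPKM in the knockdown and 53.6 ± 0.121 FPKM in the control (SD, n = 3 each), a log2 fold change of 0.01 (SE 0.0725, limma adjusted p = 0.975).

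In 5 lists of neighbouring pathways, 0 genes passed the limma adjusted p. In sterol transport, esterification and efflux, 2 of 13 tested genes were higher at an unadjusted limma p under 0.05, beside 4.71% of all tested genes, and 0 were lower, beside 5.92%. The 2 genes were NR1H2, the oxysterol receptor LXR beta, with a log2 fold change of 0.21 (SE 0.0872, limma adjusted p = 0.458), and MYLIP, an LXR target that marks lipoprotein receptors for degradation, with 0.14 (limma adjusted p = 0.469). SOAT1, which esterifies cholesterol, came next by p, with a log2 fold change of -0.16 (SE 0.0907, limma adjusted p = 0.587), and the median of the list was 0.01.

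In the isoprenoid branches, 1 of 13 genes was higher (4.71% of all genes) and 0 lower (5.92% of all genes) at the same threshold, which is near the background. ICMT, which methylates prenylated proteins, had 40.3, 44.0 and 41.0 FPKM in the knockdown and 37.6, 35.5 and 37.8 FPKM in the control, a log2 fold change of 0.17 (SE 0.0632, limma adjusted p = 0.379). FNTA, a subunit of protein farnesyltransferase, had a log2 fold change of 0.15 (SE 0.0818, limma adjusted p = 0.573), and RABGGTA, a subunit of the Rab prenylating enzyme, had one of 0.10 (SE 0.0789, limma adjusted p = 0.693). The median of this list was 0.04.

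Fatty acid supply, elongation and activation counted 0 higher and 1 lower of 18 genes, beside 4.71% and 5.92% of all genes and so near the background, with a median of -0.04. ELOVL7, another elongase of very long chains, had 5.84, 5.79 and 6.49 FPKM in the knockdown and 7.32, 8.02 and 7.25 FPKM in the control, and the groups did not overlap. Its log2 fold change of -0.31 (SE 0.0774, limma adjusted p = 0.184) was larger in size than that of ELOVL6. OXSM, of mitochondrial fatty acid synthesis, had 0.15 (limma adjusted p = 0.573) and ACSL3, an acyl-CoA synthetase of lipid droplets, had -0.16 (limma adjusted p = 0.578).

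Glycerolipid synthesis counted 0 higher and 1 lower of 15 genes, again near the 4.71% and 5.92% of all genes, with a median of 0.05. AGPAT5, a lysophosphatidic acid acyltransferase, had 11.6, 13.3 and 13.8 FPKM in the knockdown and 15.3, 15.6 and 14.2 FPKM in the control, a log2 fold change of -0.22 (SE 0.0812, limma adjusted p = 0.383). DGAT2, which makes triglyceride, had a log2 fold change of -0.20 (SE 0.0957, limma adjusted p = 0.498), and AGPAT3 had one of 0.13 (limma adjusted p = 0.507).

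The list for the degradation and escort of the SREBP and INSIG proteins also held a kinase gene, PRKAA1. Of its 10 tested genes, 0 were higher and 1 was lower, beside 4.71% and 5.92% of all genes, with a median of -0.05. FAF2, which helps draw ubiquitinated proteins such as INSIG1 from the membrane, had 19.4, 20.4 and 21.6 FPKM in the knockdown and 23.6, 23.0 and 22.4 FPKM in the control, a log2 fold change of -0.17 (SE 0.0639, limma adjusted p = 0.394). VCP, the ATPase that it works with, had a log2 fold change of 0.13 (SE 0.0682, limma adjusted p = 0.546), and PRKAA1, a catalytic subunit of AMP-activated kinase, had one of -0.13 (limma adjusted p = 0.612).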

How the data were processed

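The authors deposited 1 table of FPKM values for 11846 genes, 1 column per library. Per the labels, Bowtie2, TopHat and hg38 were used. The read counter, annotation and strand setting were not given in the sources used here. Whole reads were recovered from the deposited FPKM steps for 11844 genes (99.98%, tolerance 0.005 reads, at most 200000 reads) and served to give depth and 1 alternative. Members were tested within all genes whose mean FPKM reached 0.5 by limma 3.58.1 (R 4.3.3; lmFit, eBayes with robust and trend options) on log2(FPKM + 0.1), which understates changes of low genes, with Benjamini-Hochberg adjustment over 10813 genes and a threshold of 0.05. The fit had no covariate. It was tested on simulated data whose planted changes were larger than those of the members and which held no deviating library. That test therefore does not tell how the fit handles changes of the size seen here. Motifs were searched with Python 3.11.15. Gene positions are those of GENCODE 29. The alternatives were another pseudocount (1), no filter, a mean FPKM of at least 1, limma without trend and robust settings, array weights, median ratio scaling, limma-voom on recovered reads, a replicate block, and each library left out.

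The members and lists were chosen with earlier results of these data known. Named genes are all members and, in each other list, the 3 genes with the lowest unadjusted p. MMAB, YY2, SOD2 and RAI1 are named for shared exons. Pairs of replicates differed beyond sampling noise, so none was counted as a duplicate.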

Additional observations from a re-analysis of the deposited data

How the results depend on the processing

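Across 14 alternatives, 22 of 33 members kept their direction in every one, and 434 of 462 member values kept both direction and side of the adjusted threshold. MVK and MBTPS2 had an unadjusted limma p under 0.05 in 15 of 15 settings, ELOVL6 in 9 and SCAP in 8. The settings refit the same libraries and are not independent of each other. From 6.29% (replicate block) to 28.5% (array weights) of all genes had such a p in a setting. The share of all genes with it in every setting was not computed.

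The 14 genes past the adjusted p became 0 without trend and robust settings (1168 at an unadjusted p under 0.05), 1 with the replicate block and 1195 with array weights, and 0 to 256 with 1 library left out, the 256 without knockdown 1. Members past it stayed at 0, except for 5 with array weights, which were MVK, MBTPS2, NSDHL, EBP and INSIG1 (limma adjusted p 0.00437, 0.0263, 0.0492, 0.0424 and 0.0195). Array weights were fitted gene by gene, since the default fit did not converge, and ran from 0.188 for knockdown 1 to 3.75 for knockdown 2, so this fit leans on few libraries. Members at an unadjusted p under 0.05, 4 as reported, numbered 13 with array weights, where 28.5% of all genes did, 2 with the replicate block, and 2 to 10 with 1 library left out. The 10 came without knockdown 3, beside 16.9% of all genes. The difference between the arms' medians was 0.062 with array weights, where the fatty acid arm median was 0.022.

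With array weights PMVK turned to -0.032 and ACACA to 0.031. With 1 library left out, the log2 fold change crossed 0 for 11 members, and ran from -0.029 to 0.064 for PMVK, -0.048 to 0.228 for FDFT1, -0.004 to 0.263 for TM7SF2, -0.082 to 0.049 for ACACA, -0.044 to 0.074 for ELOVL1, -0.002 to 0.123 for SREBF2, -0.014 to 0.061 for DHCR7, -0.080 to 0.174 for STARD4, -0.030 to 0.047 for HMGCS1, -0.076 to 0.034 for CYP51A1 and -0.150 to 0.020 for SREBF1. The cause was not tested.

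Replicate numbers were not treated as pairs in the reported fit. Same-numbered knockdown and control libraries deviated from their group means with correlations of -0.34, -0.47 and -0.12. These values are not independent of each other and do not tell how the libraries were prepared. With 3 libraries per group, differences of the size seen here, mostly under 0.2 on the log2 scale against SEs of 0.0563 to 0.146, could not be told from 0 at the adjusted threshold.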
